A study of Homo sapiens with 24 samples.

Results

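The comparison described here is the line-by-doxycycline interaction at 24 h in MIA PaCa-2 cells, a human cell line derived from a pancreatic carcinoma. It takes the change from 0 to 24 h of doxycycline in C/EBPδ-inducible cells and subtracts the change over the same time in CTRL cells. All libraries of the 4 groups concerned were used, which gave 12 of the 24 libraries of the series, with 3 libraries in each group. The C/EBPδ-inducible cells were a pool of clones carrying a Tet-On vector in which doxycycline switches on a CEBPD cDNA, together with an mVenus reporter. The CTRL cells carried the same vector without the cDNA, together with an mCherry reporter. The 24 h groups of both lines received 2 µg/ml doxycycline. The sample labels list this dose for the 0 h groups as well, whereas the paper describes these cells as untreated, and they were used as such. The labels name no 24 h group without doxycycline. Within a line, the effects of the drug and of the time in culture therefore cannot be told apart. Both lines had gone through transduction and selection, so that clonal differences between the lines and the effect of the vectors are shared by all libraries of a line and cannot be told apart. The libraries are wells seeded in parallel, and p-values measure the spread between these wells.

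CCAAT/enhancer binding protein delta (C/EBPδ, encoded by CEBPD) is a basic leucine zipper transcription factor that binds DNA as a dimer with itself or another C/EBP protein. It is known for the acute-phase response, for innate immunity and for the early steps of fat cell differentiation, and in tumours both growth-restraining and tumour-promoting roles have been described. Doxycycline is not inert: as a tetracycline it binds mitochondrial ribosomes and impairs translation there, which can switch on the integrated stress response, a programme led by the transcription factor ATF4. A line without the cDNA therefore serves to subtract what the drug and the time in culture do by themselves.

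Each library held between 17328881 and 22416507 counts on genes (median 19862278), and the 10 most abundant genes took between 4.46 and 4.83% of a library. Expression is given as CPM, that is, counts scaled to library size with TMM factors, which lay between 0.968 and 1.03. The floor was set to 3 counts in a library (0.130 to 0.179 CPM, counting error only), and levels at or under it are named as such. Since the samples are bulk RNA, fewer cells expressing a gene and less of its RNA per cell cannot be told apart. The first principal component (79.3% of the variance) separated the lines and the second (6.97%) the time points. The lines already differed at 0 h for 42.4% of the genes tested. The summed level of 6 epithelial markers lay between 2786 and 2936 CPM in CTRL cells and between 199 and 204 CPM in C/EBPδ-inducible cells at 0 h, and of these markers EPCAM, KRT7 and CDH1 were each near 1 CPM or lower at 0 h in both lines. The leukocyte markers CD3E and PTPRC and the endothelial markers PECAM1, VWF and CLDN5 did not pass the filter on low counts. CD68 (0.69 to 2.00 CPM) and LYZ (0.055 to 5.25 CPM) of the leukocyte list and CDH5 of the endothelial list (0 to 1.66 CPM, highest in uninduced C/EBPδ-inducible cells) passed it at low levels, and none of the 3 was called.

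After 24 h, 948 of 16224 genes (5.84%) changed differently in the 2 lines at an FDR of 0.01 (edgeR quasi-likelihood test, Benjamini-Hochberg adjusted). Of these DEGs, 464 (2.86% of the genes tested) were higher and 484 (2.98%) were lower, where higher means that the log2 change was more positive in C/EBPδ-inducible than in CTRL cells. Most differences were small, with a median size of 0.39 on the log2 scale, and 68 DEGs exceeded 2-fold, 36 of them higher and 32 lower. Within a line, 2464 genes (15.2%) changed between 0 and 24 h in C/EBPδ-inducible cells and 961 (5.92%) in CTRL cells. The DEGs comprised 911 protein-coding genes and 17 long non-coding RNAs. The strand setting of the counting is not stated, and the values of 388 DEGs that share exonic positions with a gene on the other strand are therefore uncertain. For 587 DEGs (61.9%), all 3 libraries of induced cells lay outside the range of the other 9 libraries, which was the case for 16.7% of all genes tested. The lines already differed at 0 h for 708 of the DEGs (74.7%), in the same direction as the interaction for 330 and in the other direction for 378. On a linear scale, where CPM instead of log2 values are subtracted, 918 DEGs kept their sign and 30 did not.

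The DEGs were sorted by what happened in each line. The change was called in C/EBPδ-inducible cells but not in CTRL cells for 604 DEGs (63.7%), of which 321 were higher and 283 lower. It was called in CTRL cells but not in C/EBPδ-inducible cells for 94 DEGs (9.92%). For 155 DEGs (16.4%) both lines moved in the same direction to a different extent, and 124 of these were lower in the interaction. For 48 DEGs (5.06%) the lines moved in opposite directions, and 37 of these were higher. The remaining 47 were called in neither line by itself. Most of the genes in question thus lie along the vertical axis in the plot of the change in one line against the other, and only few lie along the horizontal axis.

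**Figure D1:**
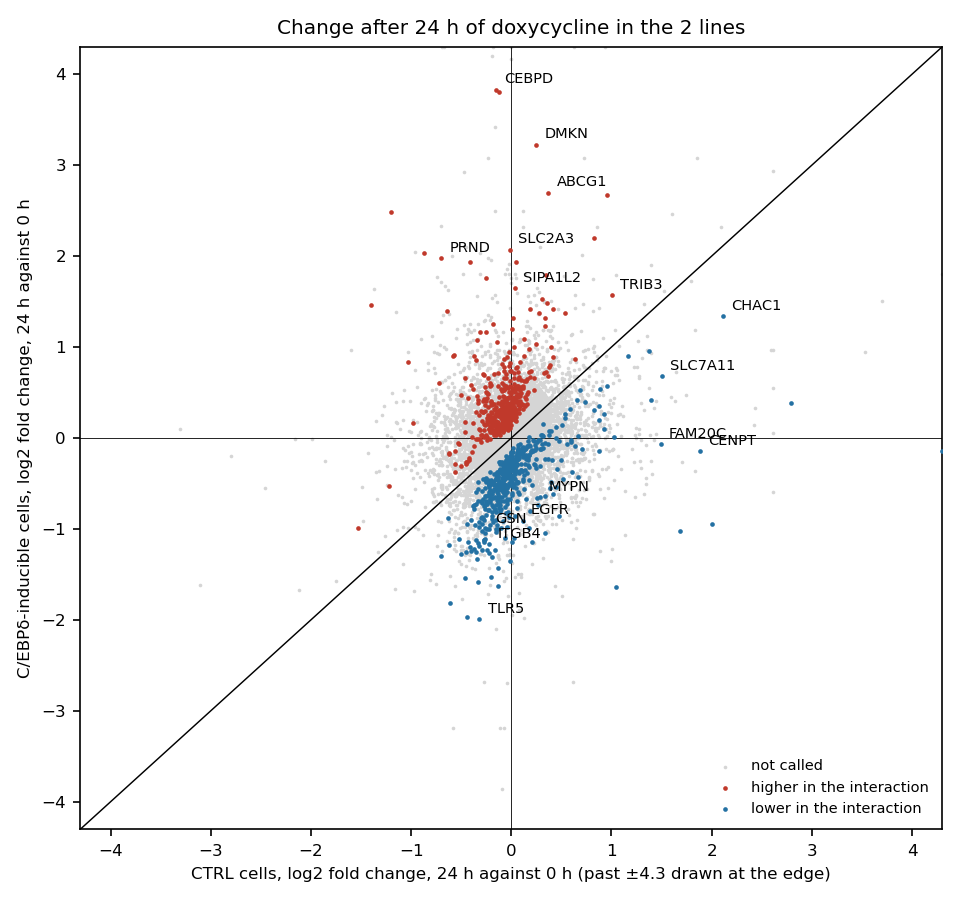
Log2 fold change from 0 to 24 h in CTRL cells (x axis) against that in C/EBPδ-inducible cells (y axis) for the 16224 genes tested. Red dots are the 464 DEGs that were higher and blue dots the 484 DEGs that were lower in the interaction. Grey dots are genes not called, and the diagonal marks an equal change in both lines. CEBPD lies near the top of the vertical axis, CENPT and FAM20C lie on the horizontal axis.

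CEBPD itself was examined first, since it checks the labels. Its level was 4.17, 3.69 and 3.89 CPM in the CTRL libraries at 0 h and 3.35, 3.61 and 3.56 CPM at 24 h. In C/EBPδ-inducible cells it was 18.6, 22.97 and 21.8 CPM at 0 h and 316, 298 and 292 CPM at 24 h. All induced libraries were far above the rest, and the uninduced libraries of the inducible line were also above those of CTRL cells. The log2 interaction was 3.99 ± 0.16 (SE, FDR = 6.5e-15), with a log2 change of 3.83 in C/EBPδ-inducible and -0.16 in CTRL cells. The counts do not separate the construct from the endogenous gene. Of the other C/EBP family members, CEBPG, a partner without a strong activation domain of its own, was lower in the interaction (-0.26 ± 0.054, FDR = 0.0014), since it rose by 0.53 in CTRL and by 0.27 in C/EBPδ-inducible cells. CEBPB, the closest relative in inflammation (-0.31, FDR = 0.023), DDIT3 or CHOP, the inhibitory stress-induced member (-0.41, FDR = 0.087), CEBPA (0.06, FDR = 0.83) and CEBPZ (-0.01, FDR = 0.92) did not pass the threshold, and CEBPE was not tested because of low counts.

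C/EBP dimers recognise a pair of inverted half-sites. The promoters of the DEGs, taken from RefSeq on GRCh38.p14 as 250 bases before and 50 bases after the start of each gene, were therefore searched on both strands for the letters TTNNGCAA. A promoter was found by symbol for 10491 of the genes tested. The letters were present in 11.9% of the 361 promoters of higher DEGs, in 6.79% of the 383 promoters of lower DEGs and in 6.89% of the promoters of all genes tested. The composite letters TGATGNAA, in which a C/EBP half-site is joined to an ATF half-site, were present in 2.77, 3.66 and 1.59% of the same promoters, and no promoter had overlapping matches of both. Of all 27305 promoters at hand, whether or not their genes were tested, 10.6% had the first letters and 3.67% the composite letters. These shares describe letters in a window and carry no test. The stretches below show the matches (capitals) with 26 bases on either side, 5′ to 3′ on the strand of the gene, for genes that recur in the following paragraphs: 4 higher DEGs and AXL, a lower DEG, with the first set of letters, and 2 genes of the stress response with the composite letters.
PRND: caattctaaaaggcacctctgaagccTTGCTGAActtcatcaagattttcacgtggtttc
NFIL3: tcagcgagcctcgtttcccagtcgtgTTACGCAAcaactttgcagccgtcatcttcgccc
CXCL2: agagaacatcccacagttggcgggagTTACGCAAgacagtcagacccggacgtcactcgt
ANXA1: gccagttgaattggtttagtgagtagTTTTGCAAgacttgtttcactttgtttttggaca
AXL: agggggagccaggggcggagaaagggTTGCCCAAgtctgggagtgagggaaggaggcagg
ASNS: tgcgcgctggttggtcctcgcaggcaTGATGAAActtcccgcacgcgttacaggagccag
CHAC1: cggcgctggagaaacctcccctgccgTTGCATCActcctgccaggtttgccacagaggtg
On GRCh38 these stretches lie at chr20:4721684-4721743 on the plus strand (PRND), chr9:91424628-91424687 on the minus strand (NFIL3), chr4:74099350-74099409 on the minus strand (CXCL2) and chr9:73151696-73151755 on the plus strand (ANXA1). The others lie at chr19:41219157-41219216 on the plus strand (AXL), chr7:97872443-97872502 on the minus strand (ASNS) and chr15:40953236-40953295 on the plus strand (CHAC1). PRND, AXL and CHAC1 have the reverse complement of the searched letters on the strand of the gene. All 7 matches lie upstream of the start, with the nearest ending 28 bases before it (NFIL3) and the farthest beginning 209 bases before it (CHAC1).

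Apart from CEBPD, the DEG with the strongest increase at a substantial level was PRND, which encodes doppel, a prion-like protein that is normally abundant in testis. Its level was 60.0, 56.4 and 58.0 CPM in CTRL cells at 0 h and 34.4, 35.6 and 37.2 CPM at 24 h. In C/EBPδ-inducible cells it was 25.8, 30.0 and 28.0 CPM at 0 h and 107, 114 and 111 CPM at 24 h. PRND thus fell in CTRL cells and rose in C/EBPδ-inducible cells without any overlap between time points, and the log2 interaction was 2.68 ± 0.070 (FDR = 7.6e-19). SLC2A3, which encodes the high-affinity glucose transporter GLUT3, stayed at 150, 145 and 144 CPM before and 143, 148 and 143 CPM after doxycycline in CTRL cells. It went from 53.2, 53.2 and 57.2 to 231, 233 and 223 CPM in C/EBPδ-inducible cells (2.08 ± 0.052, FDR = 5.1e-19), so that the line with the lower level at 0 h had the higher level at 24 h. SIPA1L2, a Rap GTPase-activating protein family member, showed the opposite order at the start, with 40.4 to 41.7 CPM in C/EBPδ-inducible and 10.3 to 12.2 CPM in CTRL cells at 0 h. At 24 h it was 130, 128 and 128 CPM in C/EBPδ-inducible cells and 9.59, 12.6 and 11.4 CPM in CTRL cells (1.62 ± 0.10, FDR = 2.3e-11).

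The other DEGs with the largest increases had lower levels. ABCG1, a transporter that exports cholesterol to lipoproteins, went from 1.41 to 9.19 CPM in C/EBPδ-inducible cells (mean, n = 3) and from 2.77 to 3.57 CPM in CTRL cells (log2 interaction 2.33 ± 0.21). ABCC3, an exporter of conjugated organic anions, went from 3.65 to 12.4 CPM and from 3.26 to 2.75 CPM (2.01 ± 0.17). CHST11, a chondroitin sulfotransferase, went from 4.54 to 17.5 CPM and from 2.55 to 2.60 CPM (1.89 ± 0.23). In all 3, the induced libraries lay above the 9 others. RBM47, an RNA-binding protein, rose in both lines but more in C/EBPδ-inducible cells, from 18.1 to 62.8 CPM against 31.4 to 39.9 CPM (1.44 ± 0.089). IL6R, the alpha chain of the interleukin-6 receptor, rose from 5.74 to 10.8 CPM and fell from 5.57 to 3.78 CPM in CTRL cells (1.48 ± 0.16), and GLIPR1 likewise rose from 2.31 to 6.11 CPM and fell from 5.18 to 3.31 CPM (2.03 ± 0.20). GLIPR1 and RBM47 are among the genes with an overlap on the other strand. AP3B2, a subunit of a neuronal vesicle adaptor, went from 3.90 to 8.74 CPM (1.48 ± 0.22). The calls for DMKN, a secreted epidermal protein (2.98 ± 0.68), and for the kinesin KIF21B (1.72 ± 0.37) depended on single libraries: DMKN lost its call without replicate 3 of CTRL at 0 h, without replicate 2 of CTRL at 24 h or without replicate 2 of C/EBPδ-inducible cells at 0 h, and KIF21B without replicate 2 or 3 of CTRL at 0 h. DESeq2 did not call DMKN either. In C/EBPδ-inducible cells DMKN was at 0.60 CPM at 0 h and 5.58 CPM at 24 h, KIF21B at 1.61 and 10.2 CPM.

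**Figure D2:**
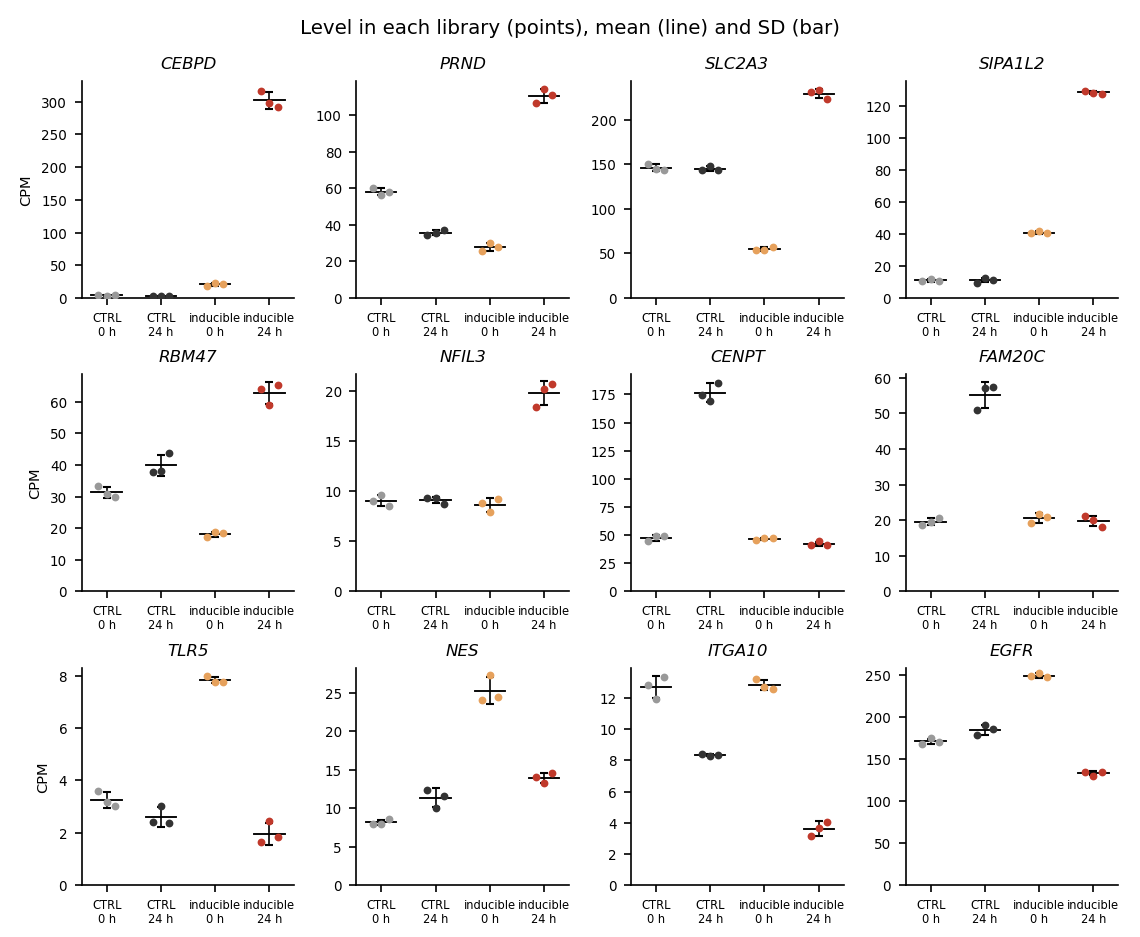
CPM (y axes, from 0) of 12 genes in each of the 12 libraries, by line and time (x axes). Points are libraries, lines are the means and bars the SD over 3 libraries. From CEBPD to NFIL3 the induced libraries lie above all others. In CENPT and FAM20C it is the CTRL libraries at 24 h that stand above the rest, and in TLR5, NES, ITGA10 and EGFR the level of the inducible line drops at 24 h.

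Among the DEGs that moved in opposite directions, the 6 with the smallest p values were all higher in the interaction. Besides PRND these were RSU1, an inhibitor of Ras-dependent transformation that sits in integrin adhesions (0.79 ± 0.051), ANXA1, a calcium-dependent phospholipid-binding protein with anti-inflammatory action (0.72 ± 0.034), SRGN, a proteoglycan of secretory granules (0.69 ± 0.037), PRNP, which encodes the prion protein (0.66 ± 0.035), and TGM2, a protein-crosslinking transglutaminase (0.64 ± 0.038). ANXA1 went from 1225, 1279 and 1248 to 991, 1007 and 982 CPM in CTRL cells. In C/EBPδ-inducible cells it went from 577, 563 and 570 to 743, 767 and 726 CPM, so that the lines approached each other without meeting. SRGN fell from 531 to 436 CPM and rose from 415 to 550 CPM. TGM2 fell from 1097 to 857 CPM and rose from 615 to 751 CPM, with the limit that its exons overlap another gene on the opposite strand.

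The largest decreases came in 2 kinds. In the first, the level of CTRL cells changed while that of C/EBPδ-inducible cells did not pass the test. CENPT, a kinetochore protein of the constitutive centromere, went from 44.8, 49.6 and 48.9 to 175, 169 and 186 CPM in CTRL cells. In C/EBPδ-inducible cells it was 45.5, 47.6 and 47.3 CPM at 0 h and 41.5, 44.6 and 41.1 CPM at 24 h, so that the 3 CTRL libraries at 24 h stood apart from all others (log2 interaction -2.03 ± 0.067, FDR = 1.3e-16). FAM20C, a kinase of the secretory pathway that phosphorylates extracellular proteins, went from 18.8, 19.5 and 20.6 to 50.8, 57.1 and 57.5 CPM in CTRL cells and stayed between 18.1 and 21.8 CPM in C/EBPδ-inducible cells (-1.56 ± 0.098, FDR = 3.5e-11). CENPT (chr16:67828157-67847811) shares exonic positions with genes on the other strand, whereas FAM20C (chr7:192571-260772) does not. The other genes with the smallest p values among those called in CTRL cells alone were GPX8, a peroxidase of the endoplasmic reticulum that rose from 43.96 to 66.5 CPM (-0.65 ± 0.066), CXCL8, which encodes interleukin-8 and fell from 93.1 to 64.4 CPM (0.48 ± 0.052), COL6A3, a collagen chain that fell from 92.6 to 64.5 CPM (0.46 ± 0.051), and MYC, which fell from 287 to 232 CPM (0.40 ± 0.040). MYC shares exonic positions with a gene on the other strand.

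In the second kind, C/EBPδ-inducible cells lost expression. TLR5, the receptor for bacterial flagellin, went from 7.97, 7.76 and 7.78 to 1.62, 2.44 and 1.82 CPM, while CTRL cells were between 3.01 and 3.61 CPM at 0 h and between 2.36 and 3.02 CPM at 24 h (-1.68 ± 0.22, FDR = 6.1e-06). ITGA10, the alpha chain of a collagen-binding integrin, fell in both lines, from 12.9 to 3.63 CPM in C/EBPδ-inducible and from 12.7 to 8.34 CPM in CTRL cells (-1.21 ± 0.13). NES, the intermediate filament protein nestin, fell from 25.3 to 13.98 CPM in C/EBPδ-inducible cells and rose from 8.14 to 11.4 CPM in CTRL cells (-1.33 ± 0.12). NGFR, the low-affinity neurotrophin receptor (-1.32 ± 0.16), GJB5, a connexin (-1.29 ± 0.17), ARHGAP31, a GTPase-activating protein for CDC42 and RAC1 (-1.35 ± 0.19), TGFB3, a TGF-beta ligand (-1.35 ± 0.20), and SLCO1B3, an organic anion uptake transporter (-1.15 ± 0.21), were called in C/EBPδ-inducible cells but not in CTRL cells, and fell to mean levels between 1.67 and 4.19 CPM. ITGA10, NGFR and TGFB3 have an overlap on the other strand. PEAR1, a platelet receptor (-1.37 ± 0.23), and BTN3A2, a butyrophilin (-1.17 ± 0.21), fell to 7.48 and 7.11 CPM and remained above the CTRL libraries, in which both were below 2 CPM on average.

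To describe the difference by pathway and family, the genes were arranged in lists. The share of genes called over all genes tested (5.84%) and the median interaction over all genes (-0.00091) are the values against which the lists are to be read, and no test was made of a list. Lists were chosen with earlier results of these data known. Apart from the 7 genes that the study followed up, the decreases were most frequent, relative to list size, in keratins, integrins, S100 proteins and aminoacyl-tRNA synthetases, and the increases in cytosolic ribosomal proteins, mitochondrially encoded mRNAs and NRF2 target enzymes.

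**Figure D3:**
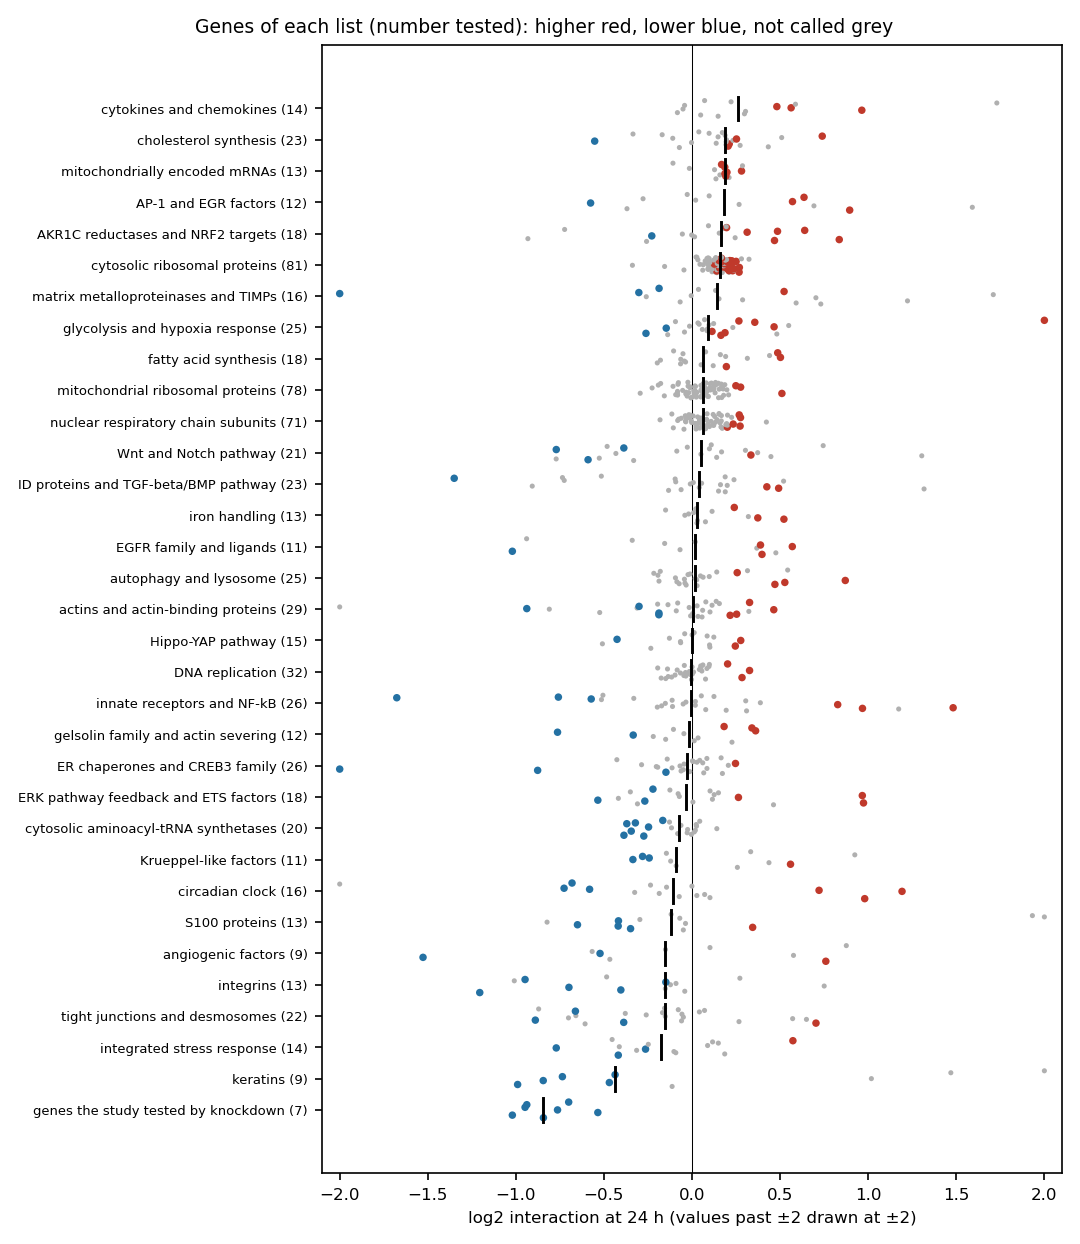
Log2 interaction at 24 h (x axis) of the genes of lists with 3 or more DEGs (rows, with the number of genes tested in parentheses), ordered by the median. Red and blue dots are DEGs that were higher and lower, grey dots are genes not called, and vertical ticks are list medians. Keratins and the 7 genes that the study followed up by knockdown have the lowest medians.

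The study followed up 7 genes of adhesion, cytoskeleton and growth signalling by knockdown. All 7 were lower in the interaction, with a median of -0.84. They were selected by the study on data that include these libraries, so that their direction is not independent evidence. EGFR, the epidermal growth factor receptor, went from 249, 252 and 248 to 134, 130 and 135 CPM in C/EBPδ-inducible cells, and was between 168 and 175 CPM at 0 h and between 179 and 190 CPM at 24 h in CTRL cells (-1.02 ± 0.045, FDR = 3.2e-14). ITGB4, the integrin chain of hemidesmosomes, went from 49.8, 49.6 and 47.7 to 21.8, 22.5 and 21.4 CPM and fell from 112 to 95.8 CPM in CTRL cells (-0.95 ± 0.062). MYPN, or myopalladin, a sarcomeric actin-bundling protein, moved in opposite directions, from 103, 105 and 116 to 69.6, 68.9 and 67.3 CPM in C/EBPδ-inducible cells and from 53.9, 57.0 and 57.6 to 70.0, 66.2 and 69.7 CPM in CTRL cells (-0.94 ± 0.063), so that the lines met at 24 h. AXL, a TAM receptor tyrosine kinase, went from 230, 243 and 230 to 117, 116 and 119 CPM, against 153 and 137 CPM in CTRL cells (-0.84 ± 0.047). The actin-severing protein GSN, or gelsolin, fell from 49.5 to 24.6 CPM and from 150 to 127 CPM (-0.76 ± 0.070). NET1, a guanine nucleotide exchange factor, fell from 393 to 231 CPM (-0.70 ± 0.041), and the transcription factor ETS1 from 174 to 115 CPM (-0.53 ± 0.062), while CTRL cells did not pass the test for either. EGFR, AXL and GSN share exonic positions with a gene on the other strand.

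**Figure D4:**
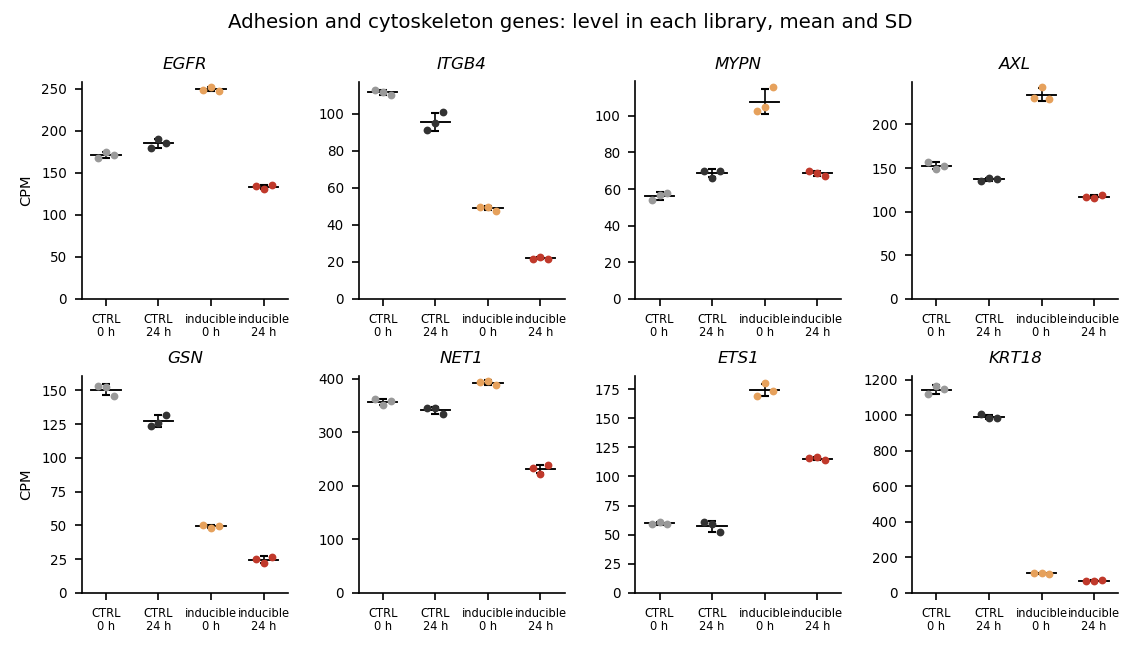
CPM (y axes, from 0) of the 7 genes followed up by the study and of KRT18 in each of the 12 libraries, by line and time (x axes). Points are libraries, lines the means and bars the SD over 3 libraries. All 8 genes drop between 0 and 24 h in C/EBPδ-inducible cells, and KRT18 is far higher in CTRL cells at both times.

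Keratins, which form the intermediate filaments of epithelial cells, had a median of -0.44, and 5 of 9 tested were lower and none higher. KRT8 went from 70.7, 73.5 and 74.8 to 34.0, 39.4 and 34.1 CPM in C/EBPδ-inducible cells and from 1485, 1585 and 1577 to 1254, 1266 and 1277 CPM in CTRL cells (-0.74 ± 0.055, FDR = 6.2e-10). Its partner KRT18 (-0.47 ± 0.041), KRT19 (-0.84 ± 0.11), KRT80 (-0.44 ± 0.047) and KRT15 (-0.99 ± 0.20, not called without replicate 2 of C/EBPδ-inducible cells at 0 h) were lower as well. For KRT8, KRT18, KRT19 and KRT15 this holds for ratios only: these keratins were so much more abundant in CTRL cells that the loss in CPM was larger there, and the difference on the linear scale had the other sign (246 CPM for KRT8, 112 CPM for KRT18). KRT8 and KRT18 also have an overlap on the other strand. KRT8, KRT18 and KRT19 make up most of the epithelial marker sum, which went from 2786 to 2936 CPM at 0 h to 2410 to 2413 CPM at 24 h in CTRL cells and from 199 to 204 CPM to 114 to 119.5 CPM in C/EBPδ-inducible cells. KRT86 (3.03, FDR = 0.011) and KRT81 (1.47, FDR = 0.057) had positive values that did not pass the threshold, and KRT81 was at 9.91 and 49.7 CPM in C/EBPδ-inducible cells.

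Integrins, the receptors for extracellular matrix, had a median of -0.15, with 5 of 13 lower and none higher: ITGA10, ITGB4, ITGA6, the partner of ITGB4 (-0.70 ± 0.078), ITGA3 (-0.40 ± 0.068, with the other sign on the linear scale) and ITGB1 (-0.15 ± 0.035). The call for ITGB1 was lost without any 1 of 10 libraries and in a model of all 24 libraries. Of the tight junction and desmosome genes, 3 of 22 were lower, namely CLDN4 (-0.89 ± 0.13), the desmosomal plakophilin PKP3 (-0.66 ± 0.12) and CLDN11 (-0.39 ± 0.043), and CLDN1 was higher (0.70 ± 0.11). E-cadherin (CDH1) was the only one of 13 genes of the list of cadherins, catenins and EMT factors that was called. It was at 0, 0.13 and 0.22 CPM in uninduced and at 1.38, 2.11 and 1.69 CPM in induced cells of the inducible line, and CTRL cells, at 0.57 to 1.49 CPM, overlapped with the latter. With 1 library without a count and another at the floor, the fitted interaction of 3.93 ± 0.65 (FDR = 0.00015) depends on how low counts are handled, and DESeq2 and the model of all 24 libraries did not call it.

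Of the S100 proteins, small calcium sensors, 4 of 13 were lower: S100A16 (-0.65 ± 0.11), S100A13 (-0.42 ± 0.089), S100A4 (-0.42 ± 0.053) and S100A10 (-0.35 ± 0.046), and S100A11 was higher (0.34 ± 0.037). S100A4 fell from 146 to 94.5 CPM in C/EBPδ-inducible cells and from 206 to 178 CPM in CTRL cells. In the gelsolin family and other actin-severing proteins, 3 of 12 were higher and 2 lower, so that the decrease of GSN and of the actin-depolymerising factor DSTN (-0.33 ± 0.044) stood beside increases of supervillin (SVIL, 0.36 ± 0.049), thymosin beta-4 (TMSB4X, 0.34 ± 0.045) and WDR1 (0.18 ± 0.036). Actins and actin-binding proteins were split evenly, with 4 of 29 higher and 4 lower. MYO10, the motor of filopodia, fell from 364 to 206 CPM in C/EBPδ-inducible cells and from 539 to 485 CPM in CTRL cells (-0.66 ± 0.036, FDR = 1.9e-12), and it was 1 of 2 lower genes among 25 of filopodia and lamellipodia. Among syndecans and glypicans, SDC4 was lower (-0.47 ± 0.048), and of 16 matrix proteases and inhibitors 3 were lower and 1 higher. The lower ones were PLAU (-0.30 ± 0.051), TIMP2 (-0.19 ± 0.042) and PLAT, which was below 1.1 CPM in all libraries, and the higher one was PLAUR, the receptor of PLAU (0.52 ± 0.073), which was called in CTRL cells alone. TIMP2 lost its call without any 1 of 7 and PLAT without any 1 of 10 libraries. Of the fibroblast markers, COL1A2 was lower (-0.39 ± 0.058). It fell from 642 to 520 CPM in CTRL cells and from 240 to 148 CPM in C/EBPδ-inducible cells, so that its sign is the other on the linear scale.

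Growth factor signalling genes went in both directions. While EGFR was lower, its ligands EREG (0.57 ± 0.055) and AREG (0.40 ± 0.063) and its feedback inhibitor ERRFI1 (0.39 ± 0.029) were higher, which made 3 of 11 genes of this family higher and 1 lower. EREG rose from 320 to 390 CPM in C/EBPδ-inducible cells and fell from 365 to 300 CPM in CTRL cells. In the ERK pathway, 3 of 18 feedback genes and ETS factors were higher and 3 lower: the phosphatase DUSP6 rose from 18.4 to 25.6 CPM and fell from 24.4 to 17.2 CPM (0.97 ± 0.098), IER3 rose from 9.88 to 19.8 CPM (0.97 ± 0.13), the ETS factor ETV4 was higher by 0.26, and SPRY4 (-0.22 ± 0.037), ETS1 and ELK3 (-0.27 ± 0.066) were lower. ELK3 lost its call without any 1 of 10 libraries, with DESeq2 and with the replicate block, and ETV4 without any 1 of 4 libraries, and the model of all 24 libraries called neither. Of the AP-1 and EGR factors, EGR1 (0.89 ± 0.070), JUNB (0.64 ± 0.094) and FOSL2 (0.57 ± 0.040) were higher and FOSL1 was lower (-0.58 ± 0.062). EGR1 went from 28.3, 33.7 and 34.9 to 74.0, 78.9 and 74.3 CPM in C/EBPδ-inducible cells and from 96.8, 103 and 101 to 129, 125 and 125 CPM in CTRL cells, so that it rose in both lines and remained higher in CTRL cells. CDKN1A, which encodes the cell cycle inhibitor p21, rose from 13.95 to 25.5 CPM in C/EBPδ-inducible cells and was at 5.05 and 4.78 CPM in CTRL cells (0.94 ± 0.16), while CDKN2C, another inhibitor, was lower (-0.60 ± 0.084). Of the proliferation genes, 3 of 32 for DNA replication were higher, namely ORC1 (0.33 ± 0.059), RRM2 (0.20 ± 0.037) and E2F2 (0.28 ± 0.070), and 1 of 28 mitotic genes, CENPF (-0.18 ± 0.036), was lower. E2F2 lost its call without any 1 of 10 libraries, with DESeq2 and with the replicate block, RRM2 in the model of all 24 libraries, and CENPF without replicate 2 of CTRL at 24 h or replicate 1 of C/EBPδ-inducible cells at 0 h. MCL1, an inhibitor of apoptosis, was the only one of 16 BCL2 family genes called (0.35 ± 0.038).

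The genes for which C/EBPδ is best known were scarce in these cells. Of 20 acute-phase and complement genes, 7 passed the filter on low counts and none was called in the interaction. Their log2 interactions were scattered around a median of 1.35, with negative values for SERPINA1 (-0.80), LCN2 (-0.30) and CP (-0.20). In C/EBPδ-inducible cells PTX3 went from 0.23 to 0.99 CPM (interaction FDR = 0.047) and C3 from 0.90 to 2.09 CPM (interaction FDR = 0.25). ORM1 went from 0 to 3.18 CPM (interaction FDR = 0.070). Within that line alone, the changes of PTX3 (FDR = 0.00070) and ORM1 (FDR = 8.7e-10) were called. That of SERPINA1, from 46.8 to 26.5 CPM, was not (FDR = 0.036). Its libraries did not overlap, at 48.0, 46.7 and 45.8 CPM at 0 h and 27.3, 26.9 and 25.4 CPM at 24 h. In CTRL cells, SERPINA1 was at 9.70 and 9.16 CPM in replicate 2 at 0 and 24 h. The other CTRL libraries were between 0.63 and 1.14 CPM. Whether this spread affected the call was not tested. Apart from SERPINA1 in C/EBPδ-inducible cells, these values rest on low counts. Of 14 adipogenic targets, 6 passed, and the lipid droplet protein PLIN2 was higher (0.79 ± 0.072, from 36.6 to 75.3 CPM) and PLIN3 lower (-0.35 ± 0.048). Of 14 cytokine and chemokine genes tested, CXCL2 (0.96 ± 0.15, from 7.85 to 12.7 CPM), CXCL5 (0.56 ± 0.077) and CXCL8 were higher and none was lower, where CXCL8 was called in CTRL cells alone. The model of all 24 libraries called neither CXCL5 nor CXCL8. Among innate receptors and genes of the NF-kB pathway, 3 of 26 were higher, namely IL6R, the interleukin-4 receptor IL4R (0.97 ± 0.079) and the inhibitor NFKBIA (0.83 ± 0.066), and 3 were lower, namely TLR5, TLR6 (-0.76 ± 0.12) and STAT3 (-0.57 ± 0.038). STAT3 fell from 369 to 228 CPM in C/EBPδ-inducible cells. Among 25 interferon-stimulated genes IFIT5 was lower (-0.48 ± 0.092), and among 15 genes of the MHC class I pathway HLA-E was higher (0.26 ± 0.061).

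Many genes of the integrated stress response rose from 0 to 24 h in both lines, 12 of 14 in CTRL and 9 of 14 in C/EBPδ-inducible cells. The interaction tests whether they rose equally. ATF4, the lead transcription factor, went from 113 to 189 CPM in CTRL cells and from 156 to 243 CPM in C/EBPδ-inducible cells, with an interaction of -0.09 (FDR = 0.30). TRIB3, a pseudokinase that restrains the response, rose more in C/EBPδ-inducible cells, from 15.95, 17.5 and 15.7 to 48.2, 50.4 and 48.1 CPM against 16.1, 16.7 and 18.6 to 33.2, 35.2 and 34.6 CPM (0.57 ± 0.087, FDR = 5e-05). CHAC1, which degrades glutathione (-0.77 ± 0.16), ASNS, or asparagine synthetase (-0.42 ± 0.067), and CEBPG rose less. ASNS went from 128, 112 and 126 to 227, 252 and 232 CPM in C/EBPδ-inducible cells and from 64.9, 70.2 and 63.5 to 172, 175 and 169 CPM in CTRL cells, so that its level was higher in C/EBPδ-inducible cells at both times while the ratio was smaller. The call of CHAC1 was lost without replicate 2 of CTRL at 0 h. Of the amino acid transporters, SLC7A11, which imports cystine (-0.83 ± 0.079), and SLC6A9, which imports glycine (-0.51 ± 0.10), rose less, and so did PSAT1 of serine synthesis (-0.26 ± 0.049). SLC7A11 rose from 50.5 to 80.9 CPM and from 11.5 to 32.6 CPM. For ASNS, CHAC1 and SLC7A11 the increase in CPM was larger in C/EBPδ-inducible cells, which is the other sign.

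The aminoacyl-tRNA synthetases of the cytosol, which charge tRNAs and include targets of ATF4, followed the same order. Of 20 genes, 13 rose in CTRL cells (median 0.35) and 11 in C/EBPδ-inducible cells (median 0.18), and in the interaction 7 were lower and none was higher. CARS1 (-0.39 ± 0.063), SARS1 (-0.37 ± 0.043), GARS1 (-0.35 ± 0.038) and TARS1 (-0.32 ± 0.040) differed most. GARS1 went from 298 to 497 CPM in CTRL and from 410 to 538 CPM in C/EBPδ-inducible cells. The count of 7 was between 6 and 7 under all alternatives that were run, apart from the linear scale, on which counts were not made.

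**Figure D5:**
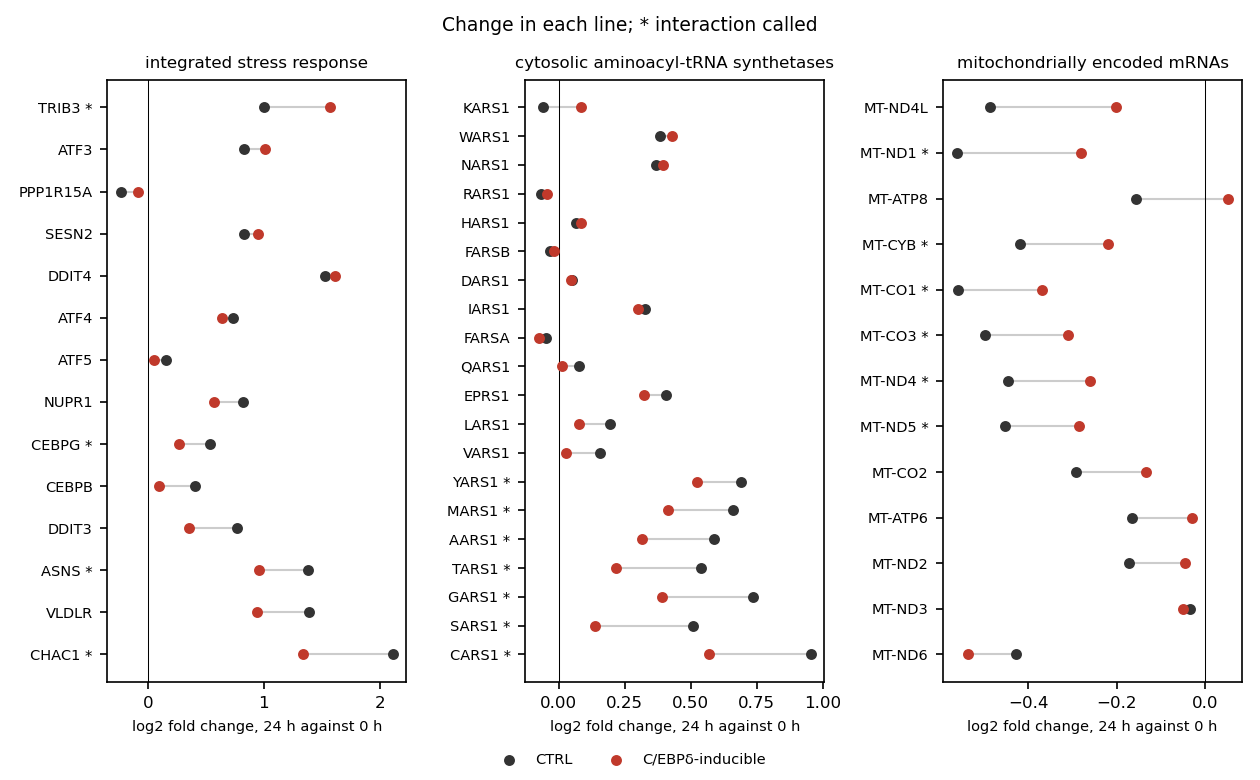
Log2 fold change from 0 to 24 h (x axes) in CTRL (black) and C/EBPδ-inducible cells (red) for the genes tested of 3 lists (rows, ordered by the interaction). Asterisks mark DEGs of the interaction. In the middle panel the 7 DEGs all rose less in C/EBPδ-inducible cells, and in the right panel the 6 DEGs all fell less.

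Of the 13 mRNAs encoded by mitochondrial DNA, 11 fell in CTRL cells (median -0.43) and 8 in C/EBPδ-inducible cells (median -0.22). Most fell less in the latter, with 6 higher and none lower in the interaction (median 0.19). MT-ND6 (-0.11, FDR = 0.57) and MT-ND3 (-0.015, FDR = 0.95) had negative values that did not pass the threshold. MT-CO1, a subunit of cytochrome c oxidase, went from 4403, 4608 and 4417 to 3018, 3107 and 2983 CPM in CTRL cells and from 4190, 4247 and 4124 to 3128, 3280 and 3322 CPM in C/EBPδ-inducible cells (0.19 ± 0.032, FDR = 0.00015), so that the lines were nearly level at 24 h. MT-ND1, a subunit of complex I, had the largest difference among those called (0.28 ± 0.049). These differences were small and the number of DEGs was not stable: it was 0 in the model of all 24 libraries, 11 without the filter on low counts, 2 without replicate 3 of C/EBPδ-inducible cells at 0 h, and 3 without replicate 2 of CTRL at 0 h, replicate 1 or 3 of CTRL at 24 h or replicate 2 of C/EBPδ-inducible cells at 24 h. Nuclear respiratory chain subunits (5 of 71 higher, none lower, median 0.06) and mitochondrial ribosomal proteins (3 of 78 higher, none lower, median 0.06) were near the share of all genes called in either direction (5.84%). The share of all genes called higher was 2.86%. The count of respiratory chain subunits was 1 in the model of all 24 libraries, 3 with the replicate block and 2 to 5 without each library in turn. It was 2 without replicate 2 or 3 of CTRL at 0 h, replicate 2 of CTRL at 24 h or replicate 1 of C/EBPδ-inducible cells at 24 h.

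Genes for cytosolic ribosomal proteins were the largest group that moved one way, with 28 of 81 higher, none lower and a median of 0.16. In C/EBPδ-inducible cells 35 of them rose and none fell (median 0.11), in CTRL cells none rose and 3 fell (median -0.04). RPL32 (0.27 ± 0.050), RPL12 (0.27 ± 0.046), RPS18 (0.25 ± 0.043) and RPL27 (0.24 ± 0.038) differed most. RPL12 went from 463, 455 and 474 to 528, 583 and 530 CPM in C/EBPδ-inducible cells and was between 580 and 618 CPM in all CTRL libraries. The count was 7 in the model of all 24 libraries, 15 without replicate 2 of C/EBPδ-inducible cells at 0 h, 16 without replicate 2 of CTRL at 24 h, 18 without replicate 2 of C/EBPδ-inducible cells at 24 h and 38 with DESeq2. Ribosomal protein genes have many processed pseudogenes that may share reads with them, and how such reads were assigned is not stated. None of 15 snoRNA host genes was called.

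In metabolism, glycolytic and hypoxia-responsive genes were more often higher (7 of 25) than lower (2 of 25). Apart from SLC2A3 the differences were modest. The pyruvate dehydrogenase kinase PDK1 (0.47 ± 0.11), PGK1 (0.36 ± 0.034), the glucose transporter SLC2A1 (0.27 ± 0.051), ENO1 (0.19), ALDOA (0.16) and GAPDH (0.11) were higher. LDHA (-0.15 ± 0.032) and the oxygen sensor EGLN1 (-0.26 ± 0.056) were lower. The model of all 24 libraries called 4 glycolytic and hypoxia-responsive genes higher. It called none of PDK1, LDHA and EGLN1, which also lost their calls without any 1 of 8, 7 and 5 libraries. Of the AKR1C reductases and NRF2 target enzymes, 6 of 18 were higher and GCLM, a subunit of the enzyme for glutathione synthesis, was lower (-0.23 ± 0.045). AKR1C2, which reduces steroid hormones, went from 175, 164 and 180 to 300, 312 and 305 CPM in C/EBPδ-inducible cells and was between 4.78 and 6.79 CPM in all CTRL libraries (0.84 ± 0.13, FDR = 5.2e-05). PGD of the pentose phosphate pathway rose from 354 to 545 CPM and was at 277 and 274 CPM in CTRL cells (0.64 ± 0.037). AKR1C1 (0.47 ± 0.066), NQO1 (0.31), TKT (0.20) and OSGIN1 (0.49 ± 0.12) completed the group. OSGIN1 lost its call without any 1 of 10 libraries, with DESeq2, without the filter on low counts and with the replicate block. AKR1C1 and AKR1C2 are near-identical copies, and reads that match both make their values uncertain. In the model of all 24 libraries 3 of the 6 higher genes were called, and AKR1C2 and OSGIN1 were not among them.

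The iron storage proteins FTH1 (0.52 ± 0.041) and FTL (0.37 ± 0.034) and the transferrin receptor TFRC (0.24 ± 0.031) were higher, 3 of 13 iron genes, and FTH1 went from 249, 262 and 252 to 380, 382 and 364 CPM in C/EBPδ-inducible cells while it was between 542 and 584 CPM in CTRL cells. Cholesterol synthesis genes had a median of 0.19, with 4 of 23 higher, among them MVK (0.74 ± 0.12) and FDFT1 (0.21 ± 0.048), and HSD17B7 lower (-0.55 ± 0.13). The model of all 24 libraries called MVK alone among the 4. For fatty acid synthesis, FADS1 (0.50 ± 0.070), SCD (0.49 ± 0.035) and ACACA (0.19 ± 0.048) of 18 genes were higher. SCD, a desaturase, rose from 768 to 1200 CPM in C/EBPδ-inducible cells and from 788 to 878 CPM in CTRL cells. Of 25 genes for autophagy and lysosomes, GABARAPL1 (0.87 ± 0.18), CTSD (0.53 ± 0.065), ATG7 (0.47 ± 0.075) and SQSTM1 (0.26 ± 0.052) were higher and none was lower.

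Circadian clock genes went in both directions. Of 16 genes, the repressors NFIL3 (1.19 ± 0.12, FDR = 1.4e-07) and BHLHE40 (0.98 ± 0.13) and the activator NPAS2 (0.72 ± 0.13) were higher. NR1D2 (-0.73 ± 0.084), NR1D1 (-0.58 ± 0.11) and TEF (-0.68 ± 0.11) were lower. NFIL3, which competes with TEF for the same DNA sites, went from 8.81, 7.90 and 9.21 to 18.5, 20.2 and 20.7 CPM in C/EBPδ-inducible cells and was between 8.55 and 9.65 CPM in all CTRL libraries. TEF rose in CTRL cells from 12.9 to 23.7 CPM and was at 11.9 and 13.7 CPM in C/EBPδ-inducible cells, and NR1D2 rose from 23.7 to 37.0 CPM in CTRL cells and was at 39.1 and 36.8 CPM in C/EBPδ-inducible cells. The core components CLOCK (0.03, FDR = 0.86), BMAL1 (-0.07, FDR = 0.77) and PER2 (-0.00074, FDR = 1.0) did not pass the test. Of the Krüppel-like factors, KLF13 was higher (0.56 ± 0.092) and KLF2 (-0.34 ± 0.064), KLF4 (-0.28 ± 0.068) and KLF3 (-0.24 ± 0.058) lower, of which KLF2 alone was called in the model of all 24 libraries.

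In the remaining families few genes were called. ID1 (0.49 ± 0.049) and ID3 (0.42 ± 0.049), inhibitors of basic helix-loop-helix factors, were higher and TGFB3 lower among 23 genes of the TGF-beta and BMP pathway. In the Hippo pathway LATS2 (0.28 ± 0.054) and AMOTL2 (0.25 ± 0.046) were higher and the tumour suppressor NF2 lower (-0.43 ± 0.043) among 15. Among Wnt and Notch genes the ligand JAG1 was higher (0.33 ± 0.046), and DKK1 (-0.59 ± 0.086), SFRP1 (-0.77 ± 0.11) and TCF7L1 (-0.39 ± 0.088) were lower. CREB3L1, a membrane-bound transcription factor of the endoplasmic reticulum, fell from 13.8 to 9.88 CPM in C/EBPδ-inducible cells and rose from 22.0 to 29.0 CPM in CTRL cells (-0.88 ± 0.092), and its relative CREB3L3 was at the floor in CTRL cells at 0 h and at 0.32 to 0.68 CPM at 24 h. The zinc importers SLC39A8 (-0.62 ± 0.072) and SLC39A10 (0.40 ± 0.055) went in opposite directions. Among angiogenic factors, ADM was higher (0.76 ± 0.16) and NRP1 (-0.52 ± 0.11) and APLN (-1.53 ± 0.35) were lower. APLN was between 0.52 and 3.54 CPM, and its call was lost without any 1 of 6 libraries and with DESeq2. NRP1 lost its call without replicate 3 of CTRL at 0 h or at 24 h. None of 13 genes of the retinoic acid pathway and none of 3 L6 family genes was called in the interaction. Within C/EBPδ-inducible cells alone some were, such as CYP26B1, from 7.05 to 2.88 CPM (FDR = 3.5e-08), and TM4SF4, from 4.92 to 9.44 CPM (FDR = 8.3e-07). In CTRL cells CYP26B1 was at 0.30 and 0.29 CPM and TM4SF4 was under the floor. Their interactions were therefore imprecise (-1.24 ± 0.45 and 1.09 ± 1.8).

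The same interaction at 8 and 48 h shares the 0 h libraries with that at 24 h, so that the values are only set side by side, from a model of all 24 libraries. CEBPD had 4.57 at 8 h, 3.98 at 24 h and 3.22 at 48 h. PRND had 0.24, 2.68 and 2.69, SLC2A3 0.93, 2.07 and 2.14, and SIPA1L2 0.64, 1.61 and 2.11. EGFR (-0.01, -1.03 and -0.81) and ITGB4 (0.02, -0.95 and -0.94) were near 0 at 8 h, while GSN (-0.87, -0.77 and -1.01) and NFIL3 (0.98, 1.18 and 1.11) had similar values at all times. CENPT (-0.68, -2.04 and -2.63) was furthest from 0 at 48 h, and FAM20C had -0.38 at 8 h and -1.56 at 24 h. CHAC1 (-1.49, -0.78 and -0.86) and SLC7A11 (-1.16, -0.83 and -1.06) were furthest from 0 at 8 h, and MT-CO1 went from 0.28 over 0.18 to -0.01.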

How the data were processed

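RNA from the wells was depleted of ribosomal RNA and sequenced, and the authors used Trimmomatic for trimming, HISAT2 for alignment to GRCh38 and HTSeq for counting. What they deposited are raw counts per gene without normalization, filter or pooling. The strand setting is not given in the sources used here. From these counts, filterByExpr, TMM scaling and the quasi-likelihood test of edgeR 4.0.16 (R 4.3.3) were applied to the 12 libraries in a model of the 4 groups, with the interaction as a contrast and an FDR cut-off of 0.01 (two-sided, Benjamini-Hochberg). SEs were derived from the log2 change and its F statistic. The fit was tested on simulated counts. Deviations of same-numbered libraries correlated at 0.13 to 0.16 between CTRL at 0 and 24 h and at -0.10 to 0.039 between all other groups, so that the numbers were not taken to pair the 4 groups. Gene annotation came from GENCODE on GRCh38 (56558 of 60675 identifiers matched), and promoters from RefSeq, which held 148 of the 195 genes named. Named were CEBPD, the 12 largest protein-coding DEGs in each direction with a mean of at least 5 CPM in a group, the 6 smallest p values among DEGs called in CTRL cells only or in opposite directions, and per list all DEGs up to 6 or else the 4 largest in each direction. Any other list member was picked with its values known. The comparison, the lists and the alternatives were chosen with earlier results of these data known. All count columns were used. A few genes and 1 list are not reported here.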

Additional observations from a re-analysis of the deposited data

Results flagged for a closer look

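The test of the difference between the lines itself was passed by 948 genes. The 6 genes that were called in opposite directions in the lines with the smallest p values had log2 interactions of 2.68 (PRND), 0.79 (RSU1), 0.72 (ANXA1), 0.69 (SRGN), 0.66 (PRNP) and 0.64 (TGM2).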

How the results depend on the processing

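The number of DEGs (948) was 922 with DESeq2 1.42.0, 948 with RLE factors, 1145 without the filter on low counts, 1002 with a minimum of 10 counts in every library, 853 with the replicate number as a block and 959 with limma on log2(CPM + 1). Without each library in turn it ranged from 747 to 956 (374 to 457 higher and 365 to 499 lower). The model of all 24 libraries, in which the spread is also estimated from 8 and 48 h, called 603 genes, of which 278 were higher and 325 lower, and 593 of the 603 were among the 948. The replicate block shared 846 DEGs with the fit without it. The deviations of same-numbered libraries correlated in all 3 pairs of CTRL at 0 and 24 h (r 0.13 to 0.16), where 6 of 6 libraries correlated best with their own number. In the inducible line, 2 of 6 did (-0.072 to 0.039). Across the lines, 6 of 6 did between CTRL at 24 h and C/EBPδ-inducible cells at 0 h (r 0.025 to 0.032). In the other pairs of groups across the lines, 0 to 2 of 6 did. The block ended the calls of 12 named genes, among them OSGIN1, ELK3, KLF4, ACACA and E2F2.

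Of the 195 named genes, 155 kept their call without each library in turn, and 133 under every alternative with a test. The model of all 24 libraries did not call 50 of the named genes, among them CEBPG, CXCL5, CXCL8, PSAT1, TFRC, AMOTL2, GCLM and SLCO1B3. None of the 195 changed direction under another test. On the linear scale, where differences of CPM are subtracted, the sign was the other for KRT8 (246), KRT18 (112), COL1A2 (31.1), KRT19 (21.5), ASNS (9.36), SLC7A11 (9.22), SLC39A8 (3.35), CHAC1 (3.09), ITGA3 (2.41), KRT15 (0.50) and DKK1 (0.41), all lower on the log2 scale. Each of these differed between the lines at 0 h. Calls were also lost without any 1 of several libraries for ACACA and KLF3 (9 each), KLF4 and TCF7L1 (8 each), HLA-E and HSD17B7 (6 each), FDFT1 (5) and S100A13 (4), and without replicate 2 of C/EBPδ-inducible cells at 0 h for GABARAPL1. DESeq2 did not call 12 of the named genes. Among these were CREB3L3, PLAT, CDH1 and APLN, with few counts, and DMKN, TCF7L1, HSD17B7 and KLF4. The cause was not tested.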

Other observations

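Some DEGs that the rule on named genes left out, because of low levels or their type, had values as large as those named. They were chosen after their values were seen. ENOX1 went from 0.038 to 1.15 CPM in CTRL cells and from 2.86 to 2.59 CPM in C/EBPδ-inducible cells. CARD17P and CASP1, an inflammatory caspase, had log2 interactions of 3.68 ± 0.50 and 2.86 ± 0.59, and CARD17P went from 0.61 to 3.43 CPM in C/EBPδ-inducible cells and from 0.55 to 0.24 CPM in CTRL cells.

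The genes next to those with the largest interactions were also examined, as the nearest tested genes on either side. Both of the tested genes next to PRND on one side were higher as well, namely PRNP (0.66 ± 0.035), 20319 bases away, and beyond it the pseudogene RPS4XP2 (1.27 ± 0.26), 36761 bases away. BTN2A2, 4776 bases from BTN3A2, was lower like BTN3A2 (-1.001 ± 0.11). FOXJ2, 13709 bases from SLC2A3, was higher (0.48 ± 0.054). THAP11 and NUTF2, which overlap CENPT, had the opposite sign to CENPT (0.42 ± 0.094 and 0.28 ± 0.053). They changed by -0.56 and -0.15 in CTRL cells, where CENPT rose by 1.89. The neighbours of FAM20C that are nearest, LINC03014 and LINC03015, were not called, while PDGFA, 236486 bases away, was lower (-0.57 ± 0.085).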
